A study of Mus musculus with 9 samples.

Results

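IL-10 and TGF-beta 1 are secreted signals that restrain inflammation in the gut. Here 8 genes of IL-10 and TGF-beta family signalling were followed through the CD11b-sorted cells of the mouse intestine. The genes were the ligands Il10, Tgfb1 and Inhba, the receptor subunits Il10ra, Il10rb, Tgfbr1 and Tgfbr2, and the response gene Tgfbi. They were chosen by name, and all 8 were found, each once, among the 31053 genes of the feature tables. The 9 libraries came from male C57BL/6 mice of 7 to 8 weeks. There were 2 libraries from the colon of specific pathogen free (SPF) mice, 2 from germ-free (GF) colon and 2 from normal small intestine. Colitis was represented by 1 wild-type colon library after dextran sulfate sodium (DSS, 2.5% for 7 days, or another dose, which the labels do not tie to the library) and 1 from Nlrc4 KO mice after DSS, and 1 more colon library came from mice on pan-antibiotics (ampicillin 1, vancomycin 0.5, neomycin 1 and metronidazole 1 g/L for 1 week or, in some cases, longer). DSS injures the colonic epithelium and brings on colitis, and Nlrc4 encodes an inflammasome sensor. The allele of the KO line was not given in the sources used here. According to the study's methods the cells of several mice were pooled for a sample, so the spread between libraries is a spread between pools.

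IL-10 binds a receptor made of the ligand-binding chain IL-10RA and the shared chain IL-10RB, and acts through JAK1, TYK2 and STAT3 to quieten inflammatory genes. In the gut it comes mainly from regulatory T cells and macrophages, and macrophages need its receptor to stay tolerant of the flora. TGF-beta 1 is secreted in a latent form, is released by integrins and proteases, and signals through the type II receptor TGFBR2 and the type I receptor TGFBR1 to SMAD2 and SMAD3. Activin A, a dimer of the subunit encoded by Inhba, reaches the same SMADs through its own activin receptors. TGFBI is a secreted matrix protein whose gene is a classical TGF-beta response gene.

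After cells with over 15% mitochondrial UMIs or under 200 genes were left out, 31759 cells remained, 1450 to 6698 a library, with a median of 3342 to 12322.5 UMIs a cell. A UMI (unique molecular identifier) counts 1 captured RNA molecule at its 3' end. Cells were assigned to a type when marker genes of that type led, and such cells are called by the name of the type with the ending "-like". There were 3240 resident macrophage-like cells and 3206 monocyte-like cells, and 5563 cells (17.5%) fitted no gate. Although the sort was for CD11b, 33.0% of the cells passed a lymphoid gate and 6.85% a fibroblast, epithelial or endothelial gate. Itgam, which encodes CD11b, stood at 255 CPM (UMIs of the gene per 1000000 UMIs of the summed cells) in macrophage-like and 355 CPM in neutrophil-like cells, against 14.0 CPM in B cell-like and 7.81 CPM in epithelial cell-like cells. None of the epithelial gate's own markers was among its 10 leading genes, which included Mptx1 and Spink4 of secretory cells. Monocyte-like cells numbered 15 in GF colon 1, 29 and 32 in the small intestine, and 1833 in the library labelled Nlrc4 KO DSS. Nlrc4 RNA was highest there, at 19.9 CPM over a range of 2.42 to 19.9 CPM, which does not check the label, since a 3' tag can lie outside a deleted exon. Kept barcodes shared with another library made up 0.986% of cells.

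The 8 genes lie on 6 chromosomes of GRCm38. Il10 is at chr1:131019845-131024974 (+ strand), Il10ra at chr9:45253837-45269149 (-), Il10rb at chr16:91406164-91425834 (+), Tgfb1 at chr7:25687002-25705077 (+) and Tgfbr1 at chr4:47353222-47414931 (+). Tgfbr2 is at chr9:116084293-116175360 (-), Tgfbi at chr13:56609523-56639562 (+) and Inhba at chr13:16011851-16031621 (+). All are protein-coding genes in GENCODE vM21. RefSeq promoter sequence (GRCm38.p6) is given for 3 genes described below. Tgfbi lay lower in the small intestine in most types, though no difference passed the test. Tgfbr2 was called higher in macrophage-like than in monocyte-like cells. Inhba was highest in the library labelled Nlrc4 KO DSS, which has no replicate and no test. Each sequence runs 5′ to 3′ on the strand of its gene and ends before the first transcribed base. Capitals mark the letters CAGAC, the core of the box that SMAD proteins bind, or the same letters read on the other strand (GTCTG).
Tgfbi, chr13:56609336-56609522, + strand: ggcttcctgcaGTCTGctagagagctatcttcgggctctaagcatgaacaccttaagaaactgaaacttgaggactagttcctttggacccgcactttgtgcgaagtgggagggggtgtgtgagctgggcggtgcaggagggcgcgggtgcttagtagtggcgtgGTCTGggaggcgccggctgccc
Tgfbr2, chr9:116175364-116175613, - strand: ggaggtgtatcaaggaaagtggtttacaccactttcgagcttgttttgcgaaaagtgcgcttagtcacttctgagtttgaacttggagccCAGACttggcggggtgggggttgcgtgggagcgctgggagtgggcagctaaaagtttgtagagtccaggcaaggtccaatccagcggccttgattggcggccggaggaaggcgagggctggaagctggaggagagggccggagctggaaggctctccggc
Inhba, chr13:16011601-16011850, + strand: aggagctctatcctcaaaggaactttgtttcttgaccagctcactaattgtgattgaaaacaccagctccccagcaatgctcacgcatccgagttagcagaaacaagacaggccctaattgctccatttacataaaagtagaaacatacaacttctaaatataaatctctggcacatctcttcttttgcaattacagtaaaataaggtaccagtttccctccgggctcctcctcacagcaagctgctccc

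On both strands CAGAC occurred 2 times in the 187 bases of Tgfbi, 1 time in the 250 bases of Tgfbr2 and 0 times in the 250 bases of Inhba. It occurred in 34.2% of all 32851 promoter windows cut to 187 bases and in 42.2% of those cut to 250 bases. The STAT letters TTCNNNGAA occurred in none of the 3, and in 5.46% and 7.02% of all windows of the 2 lengths. These letters are common, and a match is no sign of binding.

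The first question was where in this tissue the signals, receptors and response gene were transcribed. UMIs were summed per library and type, and each of 15 types was set against the mean of the other 14 with edgeR's quasi-likelihood test and the library as a block. Of 120 tests of the 8 genes, 42 were called higher (35.0%) and 48 lower (40.0%), where 28.2% of tests over all genes were called higher and 20.8% lower. Resident macrophage-like cells were the only type in which all 8 genes were called higher, and 27% of all genes were called higher there. In monocyte-like cells 7 of 8 were called higher, against 23.6% of all genes, and Tgfbr2 was called lower. In neutrophil-like cells 5 of 8 were called higher, against 23.5% of all genes. Epithelial cell-like sums were called lower for all 8, but the share of all genes called lower in that type was not computed. Neighbouring types in the order of a gene differed in 33 of 112 pairs, where 48.3% of all gene and pair combinations were called.

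**Figure D1:**
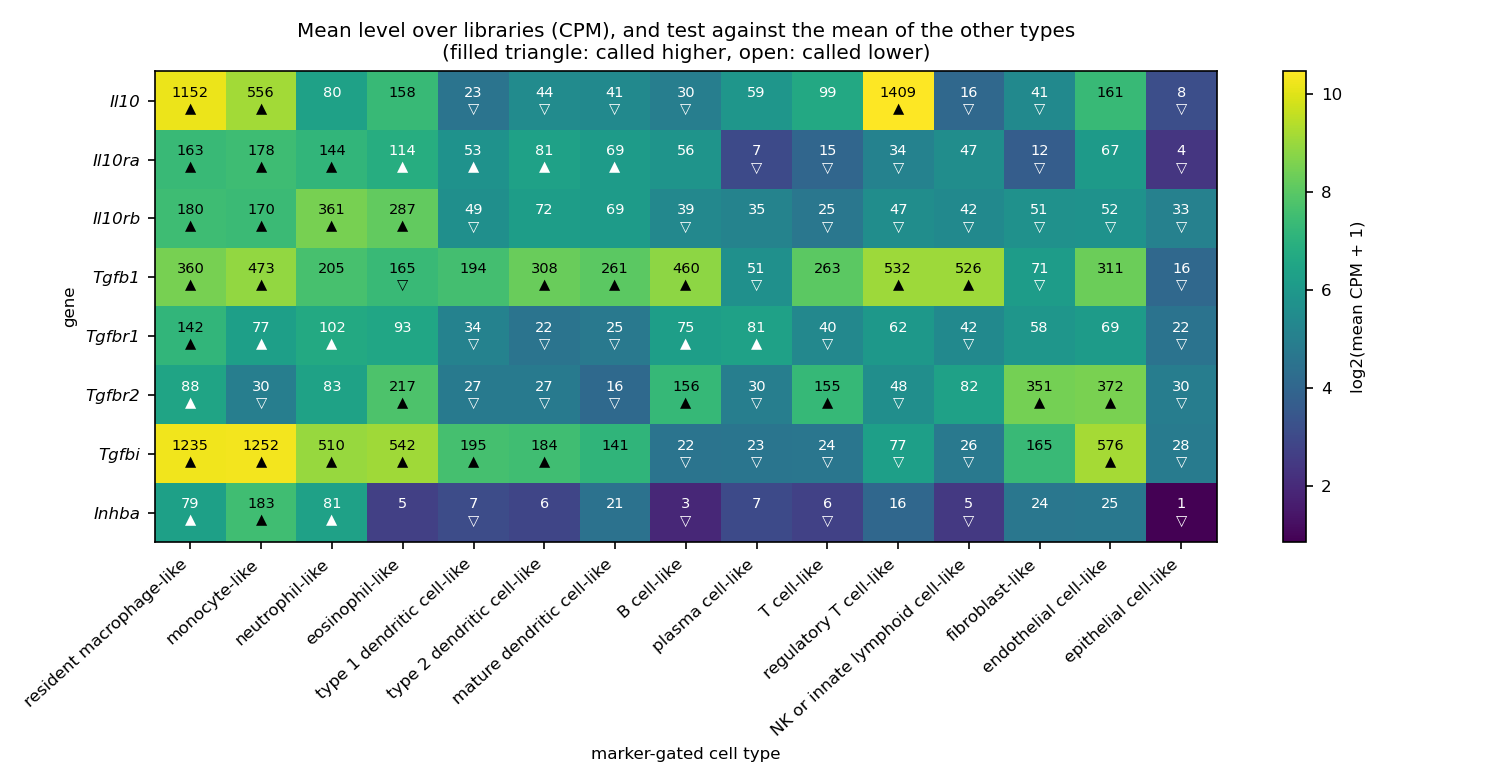
Each cell gives the mean CPM of a gene (rows) over the libraries with at least 20 cells of a type (columns), coloured by log2(mean CPM + 1), with a filled triangle where edgeR called the type higher than the mean of the others and an open triangle where it called it lower. Macrophage-like cells carry a filled triangle in every row, Il10 peaks in regulatory T cell-like (1409) and macrophage-like (1152) cells, and Tgfbr2 peaks in endothelial cell-like (372) and fibroblast-like (351) cells.

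Il10 RNA was concentrated in 3 types. In regulatory T cell-like cells, which are T cell-like cells with a UMI of the transcription factor gene Foxp3, it ranged from 629 to 2526 CPM with a median of 1275 over 5 libraries. In macrophage-like cells the lowest of 9 libraries was 268 CPM, the median 1155 CPM and the highest 2384 CPM. In monocyte-like cells the 8 libraries with at least 20 such cells ran from 173 to 1060 CPM with a median of 561 CPM. The means were 1409 ± 787 (SD, n = 5), 1152 ± 623 (n = 9) and 556 ± 355 CPM (n = 8), and each type was above the mean of the others, by 3.47, 4.24 and 2.79 on the log2 scale. Regulatory T cell-like and macrophage-like cells were not told apart. Their fitted difference was -0.72, with the macrophage side higher, and its adjusted p was 0.242, although the mean CPM had the opposite order.

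The step down from monocyte-like cells to the next type was called, and no further neighbours from rank 4 to rank 8 differed. Neutrophil-like cells had 80.2 ± 41.2 CPM (n = 9), B cell-like cells 30.3 ± 17.3 CPM (n = 9) and epithelial cell-like cells 7.93 ± 5.48 CPM (n = 8). The endothelial gate came next after monocyte-like cells at 161 ± 239 CPM (n = 5), with 562 CPM in the library labelled Nlrc4 KO DSS. Over all libraries its 197 CPM fell to 14.0 CPM when 3 markers and a higher score were required, so its place in the order depends on the gate. Macrophage-like cells were 10.2% of the cells and held 38.1% of the Il10 UMIs, and monocyte-like cells were 10.1% of the cells and held 34.3%. The library labelled Nlrc4 KO DSS weighed heavily in these sums, and without it the shares were 50.2% in macrophage-like and 16.4% in monocyte-like cells, which were then 10.8% and 5.48% of the cells.

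A UMI of Il10 was found in 50.4% of macrophage-like, 51.3% of monocyte-like and 63.9% of regulatory T cell-like cells. In epithelial cell-like cells, which should lack it, the share was 10.0%, at a median of 17002 UMIs a cell against 4867 in macrophage-like cells. After each cell was thinned to 1000 UMIs the shares were 34.7%, 28.4%, 47.5% and 2.38%. B cell-like (1.61%) and fibroblast-like cells (2.43%) lay at about that last value, and neutrophil-like cells (5.65%) above it.

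The receptor chains had a different distribution. Il10ra, the ligand-binding chain, was highest in monocyte-like cells (178 ± 40.5 CPM, n = 8), macrophage-like cells (163 ± 56.8, n = 9) and neutrophil-like cells (144 ± 40.2, n = 9), which did not differ from each other as neighbours. The lowest of the macrophage-like libraries was 98.6 CPM and the highest 261 CPM. The 3 dendritic gates were also called higher, and regulatory T cell-like (33.6 ± 14.1 CPM, n = 5) and T cell-like sums (15.4 ± 6.28 CPM, n = 9) were called lower. Regulatory T cell-like cells thus had the highest mean CPM of Il10, though not told apart from macrophage-like cells, and were called lower for Il10ra. Thinned to 1000 UMIs, 18.5% of macrophage-like and 13.0% of monocyte-like cells had a UMI of Il10ra, against 1.84% of epithelial cell-like cells, and the unthinned shares were 53.1%, 59.4% and 7.58%.

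Il10rb, the chain shared with other cytokine receptors of the IL-10 family, was highest in neutrophil-like cells. It ran there from 244 to 466 CPM with a median of 357 CPM over 9 libraries, and the lowest of these libraries lay above the highest macrophage-like library (215 CPM). The mean was 361 CPM, and the type was 2.77 above the mean of the others on the log2 scale. Eosinophil-like (287 ± 116 CPM, n = 7), macrophage-like (180 ± 39.4, n = 9) and monocyte-like cells (170 ± 37.0, n = 8) followed. Only these 4 types were called higher, and 8 types were called lower.

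Tgfb1 was called higher in both myeloid and lymphoid types. There were 7 such types, among them regulatory T cell-like (532 ± 166 CPM, n = 5), NK or innate lymphoid cell-like (526 ± 131, n = 9), monocyte-like (473 ± 76.2, n = 8), B cell-like (460 ± 112, n = 9) and macrophage-like cells (360 ± 38.0, n = 9). Among these 5 no neighbours differed. The 9 macrophage-like libraries lay within 319 to 446 CPM. Endothelial cell-like cells came next, at 311 ± 73.1 CPM (n = 5), and were not called. The lowest types were fibroblast-like (71.0 ± 22.9 CPM), plasma cell-like (50.8 ± 12.4 CPM) and epithelial cell-like cells (16.2 ± 6.72 CPM, n = 8 each), all called lower. Type 2 dendritic cell-like cells held 18.7% of the Tgfb1 UMIs, monocyte-like cells 17.6% and B cell-like cells 13.8%. Without the library labelled Nlrc4 KO DSS these shares were 22.6%, 9.18% and 16.3%.

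The TGF-beta receptor genes peaked in different types. Tgfbr1 had its highest mean CPM in macrophage-like cells, where it ran from 96.7 to 196 CPM with a median of 140 CPM, and was low in the dendritic gates, with 34.1 ± 9.42 CPM in type 1, 25.5 ± 9.33 in mature and 22.2 ± 5.73 in type 2 dendritic cell-like cells (n = 9 each). Plasma cell-like cells had 81.3 ± 8.06 CPM (n = 8), below the 92.6 ± 39.5 CPM of eosinophil-like cells (n = 7), yet in the fit they came first, at 1.66 (SE 0.11) above the mean of the others on the log2 scale, with macrophage-like cells next at 1.4996 (SE 0.10). With no TMM scaling the fitted values were 0.69 in plasma cell-like and 1.48 in macrophage-like cells. Macrophage-like cells were first in 10 of 19 alternatives and plasma cell-like cells in 9, so the first place depends on the setting.

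Tgfbr2, the receptor that binds TGF-beta first, was highest outside the myeloid gates. Fibroblast-like cells ran from 298 to 443 CPM over 8 libraries and endothelial cell-like cells from 148 to 583 CPM over 5. Eosinophil-like (217 ± 132 CPM, n = 7), B cell-like (156 ± 28.5, n = 9) and T cell-like cells (155 ± 45.5, n = 9) followed and did not differ from each other as neighbours. Macrophage-like cells (88.2 ± 24.3 CPM, n = 9) were called higher by 0.34 on the log2 scale, and monocyte-like (30.4 ± 17.3 CPM, n = 8) and all 3 dendritic gates were called lower. Mature dendritic cell-like cells were last, at 16.4 ± 5.56 CPM (n = 9).

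Tgfbi was led by monocyte-like (1252 ± 600 CPM, n = 8) and macrophage-like cells (1235 ± 595 CPM, n = 9), whose libraries ran from 687 to 2619 CPM and from 742 to 2649 CPM. Endothelial cell-like (576 ± 464 CPM, n = 5), eosinophil-like (542 ± 360, n = 7) and neutrophil-like cells (510 ± 369, n = 9) followed, and the endothelial level over all libraries was 192 CPM with the stricter gate. Type 1 and type 2 dendritic cell-like cells had 195 ± 80.7 and 184 ± 91.2 CPM (n = 9 each). B cell-like cells were last, at 22.3 ± 11.8 CPM (n = 9). Monocyte-like cells held 41.0% and macrophage-like cells 25.6% of its UMIs, or 29.2% and 32.2% without the library labelled Nlrc4 KO DSS.

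Inhba was called higher in 3 myeloid types and in no other type. Monocyte-like cells had 183 ± 144 CPM (n = 8), neutrophil-like cells 81.0 ± 57.1 CPM (n = 9) and macrophage-like cells 79.3 ± 131 CPM (n = 9). In macrophage-like cells the spread was larger than the mean. The library labelled Nlrc4 KO DSS was the highest there at 421 CPM, small intestine 1 was the lowest at 5.04 CPM, and the median was 43.1 CPM. The same library was the highest in monocyte-like cells at 512 CPM, with a median of 131 CPM, while neutrophil-like cells ran from 0 CPM in GF colon 1 to 141 CPM in the pan-antibiotics library. Inhba was among the 10 leading genes of the monocyte gate, of which it was not a marker. Thinned to 1000 UMIs, 17.6% of monocyte-like, 4.96% of macrophage-like and 0.216% of epithelial cell-like cells had a UMI. Monocyte-like cells held 58.1% of all Inhba UMIs, and 40.9% without the library labelled Nlrc4 KO DSS.

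The study follows monocytes into resident macrophages, so the 2 types were compared within the 8 libraries that held at least 20 cells of each. Of the 8 genes 3 were called higher in macrophage-like cells, against 14.6% of all genes, and 1 was called lower, against 8.25% of all genes. Il10 was higher in macrophage-like cells in 8 of 8 libraries, at 1150 ± 666 against 556 ± 355 CPM, with a log2 difference of 1.35 (SE 0.40, adjusted p = 0.0072). The ratio was smallest in SPF colon 1, at 1.44 (583 against 404 CPM), and largest in small intestine 1, at 6.22 (1133 against 182 CPM). The call depended on 3 choices. Without small intestine 1 the difference was 1.04 (adjusted p = 0.0765), and with joint clusters in place of the gate 0.79 (adjusted p = 0.0663). With no library term it was 1.04 (adjusted p = 0.169), while the other 16 of 19 alternatives kept the call. Joint clusters gave the same name to 66.6% of macrophage-like and 70.9% of monocyte-like cells.

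Both TGF-beta receptor genes were higher in macrophage-like cells. Tgfbr1 stood at 139 ± 34.4 CPM in macrophage-like and 77.4 ± 8.99 CPM in monocyte-like cells, a log2 difference of 0.90 (SE 0.16, adjusted p = 5.75e-06), and was higher in 8 of 8 libraries. The highest monocyte-like library (88.6 CPM) lay below the lowest macrophage-like library (96.7 CPM). Tgfbr2 stood at 84.3 ± 22.6 against 30.4 ± 17.3 CPM, a log2 difference of 1.57 (SE 0.21, adjusted p = 2.75e-09), again higher in 8 of 8 libraries. Its extreme was GF colon 2, with 93.5 CPM in macrophage-like and 7.70 CPM in monocyte-like cells. That monocyte-like sum held 60 cells and 519300 UMIs of all genes, so its 7.70 CPM rests on few UMIs of Tgfbr2. Both calls were kept in all 19 alternatives tried for this contrast.

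Inhba went the other way and was lower in macrophage-like cells in 8 of 8 libraries. The means were 88.3 ± 137 and 183 ± 144 CPM, and the log2 difference was -1.50 (SE 0.35, adjusted p = 0.000485). The call was lost without the library term, at -1.15 with an adjusted p of 0.232. Tgfb1 was also lower in 8 of 8 libraries, at 363 ± 40.1 against 473 ± 76.2 CPM, but its difference of -0.31 (SE 0.15, adjusted p = 0.124) was not called. It was called in 1 of 19 alternatives, with joint clusters, at -0.43 (adjusted p = 0.0273). Il10ra (-0.02, SE 0.22), Il10rb (0.14, SE 0.14) and Tgfbi (0.05, SE 0.31) were not called either, and Il10ra and Il10rb were each higher in 4 of 8 libraries.

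**Figure D2:**
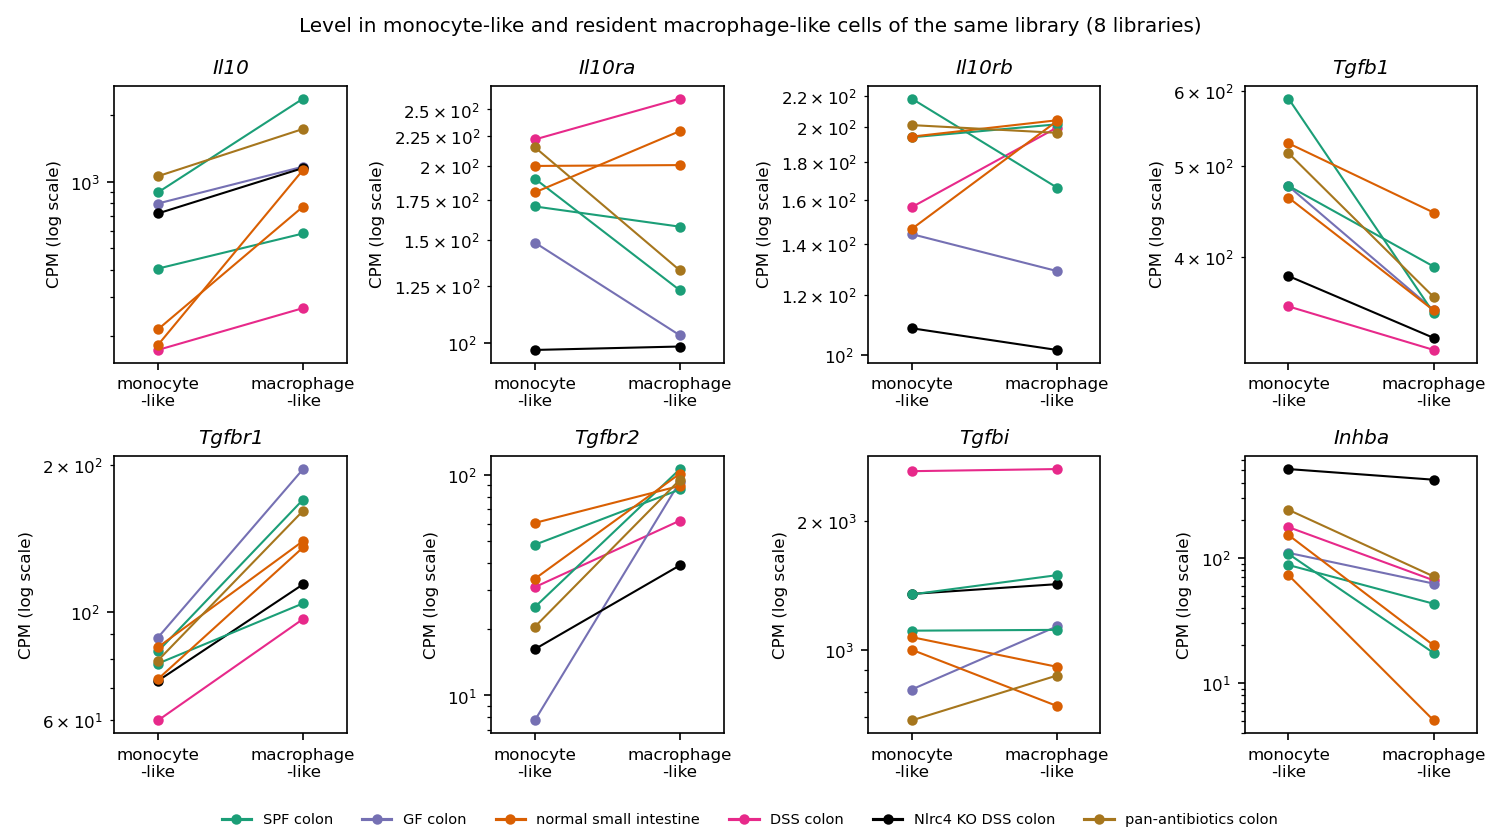
Each panel gives the CPM of a gene (log axis) in monocyte-like and macrophage-like cells, with a line for each of the 8 libraries coloured by group. All lines climb for Il10, Tgfbr1 and Tgfbr2 and all fall for Inhba and Tgfb1, while the lines of Il10ra, Il10rb and Tgfbi run both ways.

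Other genes of the 2 pathways were read from fixed lists in the same contrast, here without the 8 genes themselves. Of 12 other IL-10 pathway genes 2 were higher in macrophage-like cells and 3 lower, where 14.6% of all genes were higher and 8.25% lower, and their median log2 difference was -0.18 against 0.13 over all genes. The higher ones were Maf, which encodes a transcription factor that drives Il10 (184 ± 84.4 CPM, n = 9, against 66.8 ± 22.9, n = 8, log2 1.38), and Il4ra, a receptor chain for IL-4 and IL-13 (0.74). Bcl3, a STAT3 target and NF-kappaB cofactor, was lower by the most, at 116 ± 26.1 against 251 ± 85.2 CPM (-1.04). Of 30 other TGF-beta and activin pathway genes that could be tested 9 were higher and 2 lower, with a median of 0.23. Pmepa1, a TGF-beta response gene that feeds back on SMAD signalling, stood at 214 ± 120 against 13.9 ± 11.2 CPM (3.93). Tgfb3 was called higher but stayed at 2.64 against 0.0137 CPM. Thbs1, which encodes a matrix protein that can activate latent TGF-beta, was lower, at 492 ± 277 against 1831 ± 968 CPM (-1.78).

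Genes induced by tissue dissociation moved in the same contrast. Of 10 such genes 4 were higher in macrophage-like cells and 1 lower, with a median of 0.29, beside the same 14.6% and 8.25% of all genes. Hspa1b stood at 594 ± 641 against 262 ± 314 CPM (1.39), Hspa1a differed by 1.26, Fosb by 1.03 and Egr1 by 0.77. Their part in the differences of the 8 genes was not tested.

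The second question was whether the flora or the organ changed these levels. In 10 sums (9 types with enough cells in each of the 6 libraries, and all kept cells) GF colon was set against SPF colon in 72 tests of the 8 genes. With edgeR 0 were called, where 0.00478% of all genes and sums were, and DESeq2 called 0. An unadjusted edgeR p under 0.05 was found in 7. The share of all genes at that p was computed only for all kept cells, at 2.83%. The smallest adjusted p was 0.143, for Il10 in B cell-like cells, where the GF libraries had 62.9 and 52.6 CPM and the SPF libraries 20.3 and 21.3 CPM (log2 1.56). The groups did not overlap, but the level depended on which cells were counted as B cells. With joint clusters the GF libraries had 12.9 and 13.6 CPM and the SPF libraries 20.1 and 18.0 CPM, and the difference turned to -0.36. With the replicate block the gated difference was called (adjusted p = 0.0444).

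Il10 in macrophage-like cells was nearly the same in both GF libraries, at 1165 and 1171 CPM, while the SPF libraries gave 583 and 2384 CPM. The GF values lay between the SPF values, and the difference of -0.33 on the log2 scale (SE 0.55) was not called. Tgfb1 in macrophage-like cells was 343 and 352 CPM in GF and 391 and 349 CPM in SPF colon.

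Tgfbi lay lower in the small intestine than in SPF colon in most types, though no difference passed the test. With edgeR 0 of 72 tests were called against SPF colon, where 0.66% of all genes and sums were, while DESeq2 called 1. An unadjusted edgeR p under 0.05 was found in 12. The share of all genes at that p was computed only for all kept cells, at 6.76%. Of the 72, 37 had both small intestine libraries below both SPF libraries, where 24.7% of all genes and sums did, and 8 of the 9 Tgfbi sums were among them. In mature dendritic cell-like cells Tgfbi was 42.2 and 16.2 CPM in the small intestine and 159 and 180 CPM in SPF colon, a log2 difference of -2.44 (SE 0.42, adjusted p = 0.0571). This was the closest to the threshold, and it passed in 9 of 16 alternatives, the replicate block among them (adjusted p = 0.0308). Joint clusters gave the same name to only 45.5% of mature and 52.7% of type 1 dendritic cell-like cells.

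The other dendritic gates lay the same way. Type 2 dendritic cell-like cells had 29.4 and 76.1 CPM against 273 and 195 CPM (-2.04, adjusted p = 0.139), and type 1 dendritic cell-like cells 45.0 and 105 against 195 and 181 CPM (-1.27, adjusted p = 0.322, or 0.0388 with the replicate block). In macrophage-like cells the gap was narrower, at 916 and 742 against 1498 and 1117 CPM (-0.72, adjusted p = 0.627). Monocyte-like cells, with 29 and 32 cells in the small intestine libraries, had 1074 and 1004 against 1351 and 1112 CPM. Epithelial cell-like cells were the exception, with 18.8 and 34.7 CPM in the small intestine and 28.3 and 0 CPM in SPF colon. The 0 came from SPF colon 2, a sum of only 20 cells with 204434 UMIs. Summed over all kept cells Tgfbi was 52.7 and 142 against 446 and 282 CPM (-1.60, adjusted p = 0.534). Monocyte-like cells were 0.794% and 0.585% of the cells in the small intestine and 10.6% and 7.73% in SPF colon. Plasma cell-like cells were 50.9% and 6.01% against 8.99% and 2.10%, and held 30652525 of the 45387734 UMIs of small intestine 1. In a sum over all cells a changed mix of types and less RNA a cell cannot be told apart.

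**Figure D3:**
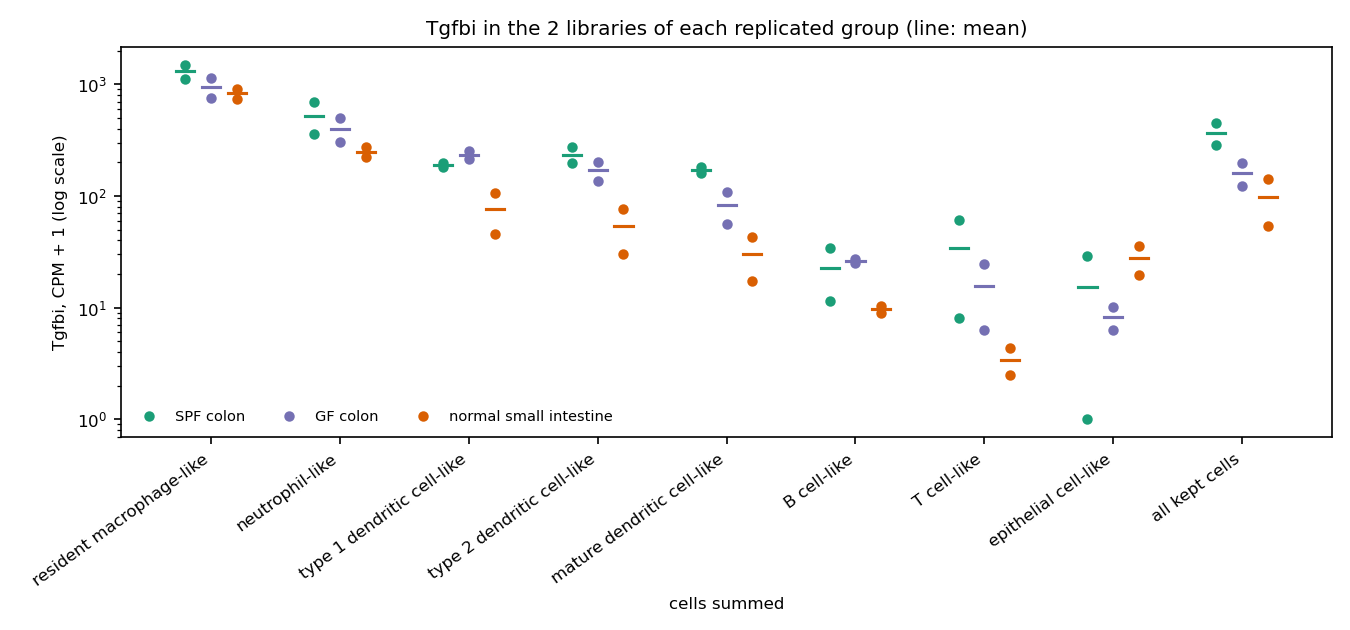
Tgfbi level (CPM + 1, log axis) in each library of SPF colon, GF colon and normal small intestine, by the cells summed, with a line at the mean of the 2 libraries. The small intestine libraries lie below both SPF colon libraries in 8 of 9 sums, all but the epithelial cell-like one, and no difference passed the test.

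Inhba lay below both SPF libraries in 4 of its 5 sums in the small intestine, where 24.7% of all genes and sums did. The 4 included all kept cells, with fewer monocyte-like cells in the small intestine. They also included type 2 dendritic cell-like cells, at only 1.62 and 2.47 against 5.67 and 3.05 CPM. Inhba overlapped the SPF libraries in macrophage-like cells, at 5.04 and 20.03 against 43.1 and 17.4 CPM. In monocyte-like cells, its main source, it overlapped too, at 72.8 and 152 against 87.8 and 108 CPM, with the higher mean in the small intestine. In mature dendritic cell-like cells it was 0 in both libraries, against 26.8 and 11.0 CPM in SPF colon (adjusted p = 0.162), and in neutrophil-like cells 11.5 and 39.3 against 48.1 and 89.7 CPM (adjusted p = 0.993). Tgfbr2 in epithelial cell-like cells was 12.9 and 9.71 against 31.6 and 68.5 CPM (log2 -1.66, adjusted p = 0.103). The 68.5 CPM came from the sum of only 20 epithelial cell-like cells in SPF colon 2. For the pathway lists in all kept cells edgeR called 0 genes in either comparison. At an unadjusted p under 0.05 it found 0 of 12 other IL-10 genes and 0 of 30 other TGF-beta and activin genes in GF colon, where 2.83% of all genes were, and 0 and 5 in the small intestine, where 6.76% were. Without the 8 genes the IL-10 list had a median of -0.46 in GF and -0.04 in the small intestine and the TGF-beta and activin list 0.03 and -0.65, against 0.013 and 0.040 over all genes.

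Whether the organ difference of Il10 was unequal in the 2 types was tested directly, and no difference was called. Macrophage-like cells had 1133 and 772 CPM in the small intestine and 583 and 2384 CPM in SPF colon, which overlap, while monocyte-like cells had 182 and 214 against 404 and 895 CPM, which do not. The organ difference in macrophage-like minus that in monocyte-like cells was 1.37 on the log2 scale (SE 0.38), and the adjusted p was 0.395. For Inhba it was -1.42 (adjusted p = 0.653). Of 8 tests edgeR called 0, where 0.0559% of all genes were called, and DESeq2 called 0. An unadjusted edgeR p under 0.05 was found in 2, and no share of all genes at that p was computed.

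The DSS, Nlrc4 KO DSS and pan-antibiotics conditions had 1 library each, so their differences have no replicate check and no test. A gene was named where its level plus 5 CPM was more than 2-fold above or below both SPF colon libraries. That held for 11 of the 96 combinations of gene, condition and cell set examined. The share of all genes is given with each of the 11, and none was computed over all 96 combinations. Intervals here are exact Poisson intervals at 95%, for counting error only.

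Tgfbi was highest in DSS colon across the myeloid cells. It reached 2649 CPM in macrophage-like, 2619 in monocyte-like and 1421 CPM (1373 to 1472) in neutrophil-like cells. The SPF libraries gave 1498 and 1117 CPM, 1351 and 1112 CPM, and 687 and 359 CPM in the same types. The macrophage-like level was 1.77-fold and 2.37-fold of SPF 1 and 2, and the monocyte-like level 1.94-fold and 2.35-fold. Neither was past 2-fold above both SPF libraries, so of these types only the neutrophil-like one met the rule. DSS was the highest library in 10 of the 15 types for Tgfbi, a count for which no share of all genes was computed. The neutrophil-like level was 2.06-fold and 3.92-fold above the SPF libraries, and 3.51% of all genes were past 2-fold above there. Macrophage markers summed to 1537 CPM in the neutrophil-like cells of DSS, and to 1378 and 105 CPM in those of SPF 1 and 2, with all 7 detected in DSS, so these markers were high beside Tgfbi in DSS and SPF 1. Monocyte markers there summed to 2885 CPM in DSS against 1360 and 589 CPM in SPF, with all 8 detected in DSS. The part of either list in the Tgfbi level was not tested. The neutrophil-like level was no longer past 2-fold with joint clusters (1.89-fold over SPF 1), with stricter cells (1.91-fold) or with the stricter gate (1.995-fold). Over all kept cells Tgfbi was 971 CPM in DSS (2.17-fold and 3.39-fold) and Inhba 58.6 CPM (2.45-fold and 3.21-fold), against 0.79% of all genes past 2-fold above, and 15.8% of the DSS cells were monocyte-like. In the library labelled Nlrc4 KO DSS, Tgfbi was 1428, 1355 and 465 CPM in the 3 types.

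Il10 was lowest in DSS in both macrophage-like and monocyte-like cells. In macrophage-like cells it was 268 CPM (247 to 290), or 0.464-fold and 0.114-fold of the SPF libraries, where 0.337% of all genes were past 2-fold below. In monocyte-like cells it was 173 CPM (161 to 186), or 0.435-fold and 0.198-fold, where 0.173% of all genes were. The library labelled Nlrc4 KO DSS did not share this and had 1155 and 719 CPM. Monocyte markers in the macrophage-like cells were higher in both, summing to 2643 CPM in DSS and 2252 CPM in the library labelled Nlrc4 KO DSS, against 1696 and 540 CPM in SPF. Joint clusters gave 237 CPM in the macrophage clusters of DSS and 658 and 2073 CPM in those of SPF. In the monocyte clusters they gave 212 against 399 and 733 CPM, or 0.537-fold and 0.294-fold, which was no longer past 2-fold.

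Inhba was highest in the library labelled Nlrc4 KO DSS. Monocyte-like cells had 512 CPM (502 to 523), against 87.8 and 108 CPM in SPF, or 5.57-fold and 4.59-fold, where 0.773% of all genes were past 2-fold above. DSS monocyte-like cells had 176 CPM and pan-antibiotics monocyte-like cells 242 CPM (210 to 278), the latter 2.66-fold and 2.19-fold, where 0.214% of all genes were. With joint clusters the monocytes of the library labelled Nlrc4 KO DSS kept 369 CPM against 81.6 and 61.9 CPM in SPF, but those of the pan-antibiotics library had 110 CPM, or 1.33-fold and 1.72-fold, which was no longer past 2-fold. Over all kept cells Inhba was 239 CPM, or 9.40-fold and 12.3-fold, where 1.17% of all genes were, and 27.4% of the cells were monocyte-like.

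Macrophage-like cells of that library had 421 CPM of Inhba (404 to 440), or 8.87-fold and 19.0-fold of SPF, where 1.15% of all genes were past 2-fold above. This level depended on how macrophages were defined. A stricter gate left 336 CPM over 472 cells, and joint clusters left 113 macrophages with 13.0 CPM, next to 29.4 and 6.50 CPM in SPF. In T cell-like, NK or innate lymphoid cell-like and B cell-like cells of the same library Inhba was 37.3, 34.9 and 12.1 CPM, each the highest of the 9 libraries.

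Tgfbr2 was low in the same library. Macrophage-like cells had 39.0 CPM (33.7 to 44.8) against 86.1 and 107 CPM in SPF, or 0.483-fold and 0.394-fold, where 2.46% of all genes were past 2-fold below. Neutrophil-like cells had 34.8 CPM (26.3 to 45.2) against 79.0 and 144 CPM, or 0.474-fold and 0.267-fold, where 6.57% of all genes were. In monocyte-like cells the levels were 16.2 CPM against 48.3 and 25.2 CPM. Joint clusters gave 120 CPM in the macrophages of that library against 94.5 and 138 CPM in SPF, and 35.1 CPM in its neutrophils against 74.9 and 64.8 CPM, so neither was past 2-fold there, and the stricter gate left the macrophage-like fold at 0.50004, just short of the rule.

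The IL-10 receptor chains and Tgfbr1 stayed within the 2-fold rule in these conditions. Il10ra was 261 CPM in the macrophage-like cells of DSS (240 to 283), against 158 and 123 CPM in SPF, and DSS was the highest library for it in 8 of the 15 types. In the library labelled Nlrc4 KO DSS it was 98.6 CPM in macrophage-like, 97.3 CPM in monocyte-like and 107 CPM in neutrophil-like cells, below both SPF libraries in each. Il10rb lay below both SPF libraries there too, at 102, 108 and 244 CPM in the same types. Tgfbr1 was lowest in DSS in 7 of the 15 types, with 96.7 CPM in macrophage-like cells (84.2 to 110) next to 104 and 170 CPM in SPF. No share of all genes was computed for these counts of types, or for levels below both SPF libraries.

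In the pan-antibiotics library Il10 was the highest of the 9 libraries in 6 of the 15 types, again with no share of all genes computed. It was 1737 CPM (1627 to 1852) in macrophage-like cells, between the SPF libraries at 583 and 2384 CPM, and 1060 CPM (991 to 1132) in monocyte-like cells, above both at 404 and 895 CPM.

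**Figure D4:**
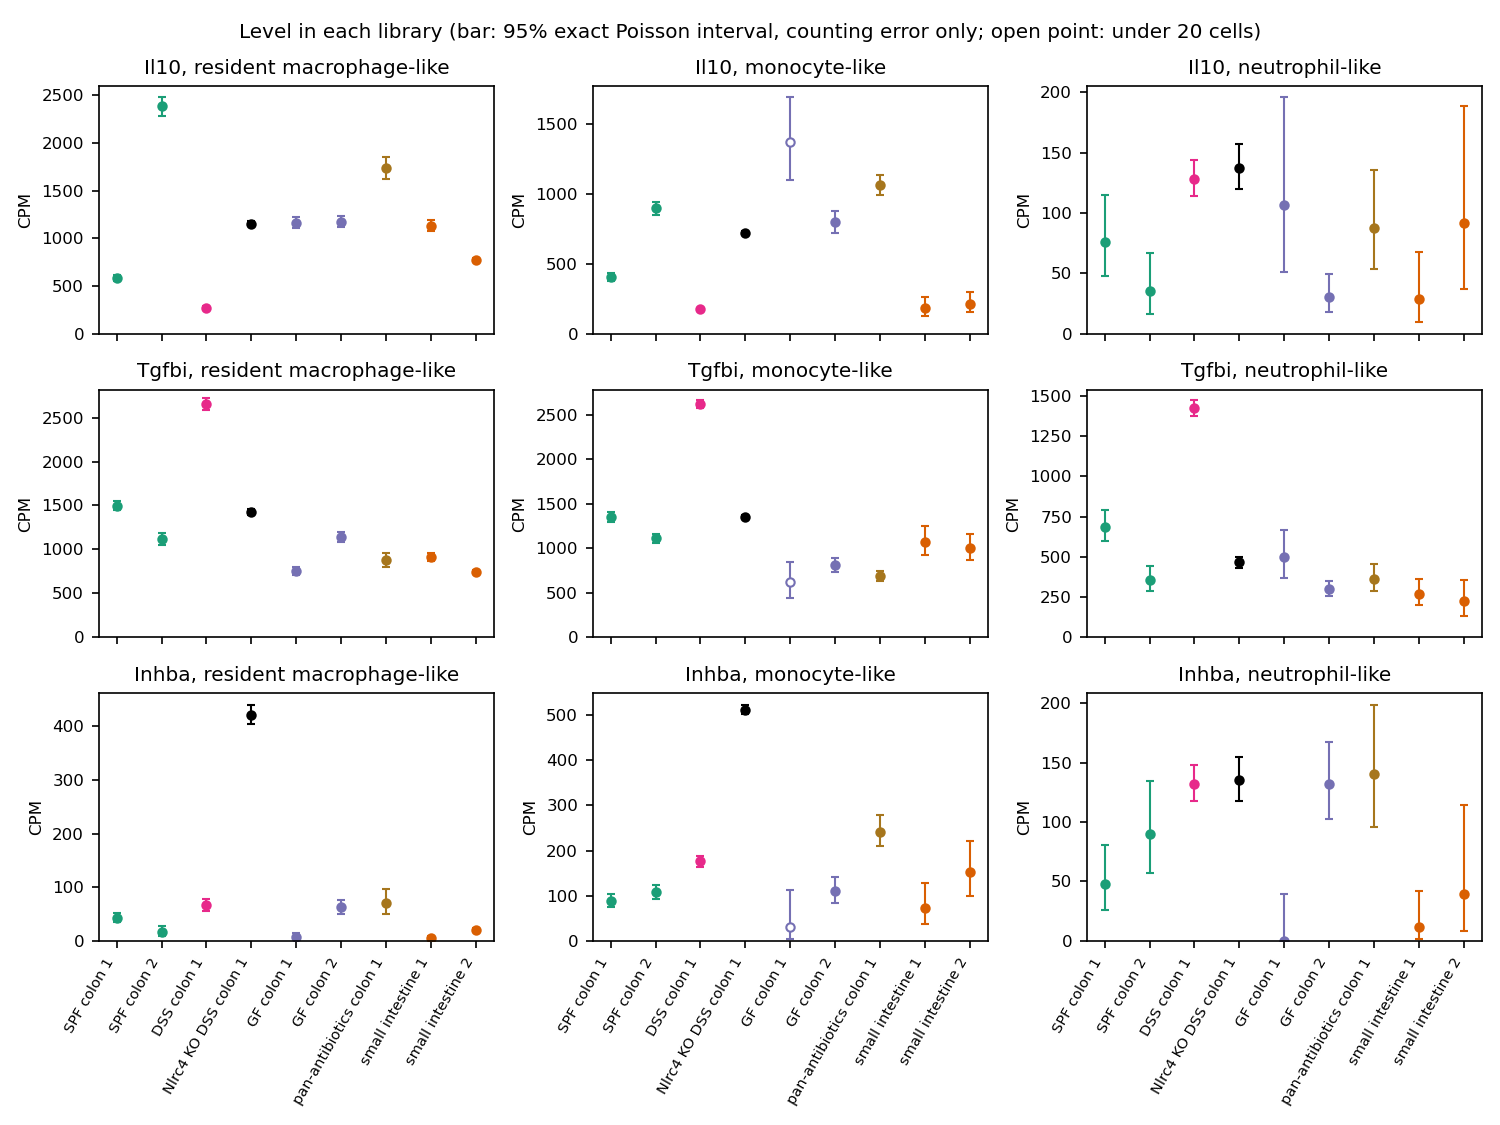
Levels (CPM) of Il10, Tgfbi and Inhba (rows) in macrophage-like, monocyte-like and neutrophil-like cells (columns) of each library, with exact Poisson intervals at 95% that cover counting error only. An open point marks a sum of under 20 cells. Tgfbi peaks in DSS colon in all 3 types and Il10 is lowest there in macrophage-like and monocyte-like cells, while Inhba peaks in the library labelled Nlrc4 KO DSS in those 2 types.

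Across 122 sums of library and type, the profiles of the 8 genes were described by Pearson's r of log2(CPM + 1). The sums of a library share its depth, and the sums of a type share its markers, so r is given as a description. Among 5943 genes with a mean of at least 20 CPM, the closest to Il10ra were Plek (0.89), Lyn (0.88) and Nrros (0.88), and to Il10rb Ptafr (0.89), Mcl1 (0.88) and Cd300ld (0.87). Tgfb1 was closest to Msn (0.88), Runx3 (0.84) and Nfkb1 (0.83), and Tgfbi to Ier3 (0.84), Eepd1 (0.84) and Lrrc25 (0.83). Il10 had weaker likenesses, with Rbm7 (0.69), Tnip1 (0.68) and Csf1r (0.67). Inhba was closest to F10 (0.78), Sod2 (0.78) and Clec4e (0.74), and F10 was one of the monocyte markers of the gate. Tgfbr1 was closest to 1700017B05Rik (0.74), Abca1 (0.67) and Lpin2 (0.65), and Tgfbr2 to Tprgl (0.78), Ski (0.75) and Txnip (0.72). Between the 8 genes r was highest for Il10rb with Tgfbi and for Il10ra with Tgfb1, both at 0.72, and Tgfbr2 stayed within -0.11 to 0.39 of the other 7.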

How the data were processed

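The authors deposited, for each of 9 libraries, a matrix of UMI counts per gene and cell (10x 3' v3, Cell Ranger 3.0.2 per the file headers, STAR 2.5.1b per the submitters' processing notes, mm10), with no normalization. Cells with at most 15% mitochondrial UMIs and at least 200 genes were kept and gated by marker genes (score at least 0.5, 2 markers, lead 0.2). The markers, the 8 genes and the gene lists were chosen with earlier results of these data known. Counts were summed per library and type (at least 20 cells) and tested with edgeR 4.0.16 (R 4.3.3, TMM, filterByExpr, quasi-likelihood, Benjamini-Hochberg over all genes, threshold 0.05), with the library as a block between types and no covariate between groups. Deposited totals were 13243317 to 64453601 UMIs a library. DESeq2 1.42.0, other filters, scalings, gates and joint clusters, and leaving out libraries were tried. The scripts were tested on simulated data. Scrublet called 0.419% of cells, too few to rely on, so doublets were not removed. Named genes were the 8, up to 4 called genes a list by size of change, and the 3 genes most like each.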

Additional observations from a re-analysis of the deposited data

How the results depend on the processing

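For single genes in single contrasts, 726 alternatives kept direction and side of the threshold, 47 passed it newly, 4 no longer passed and 12 reversed. All 12 reversals concerned differences that were not called. The counts of calls over the 8 genes were as follows. Between types 90 of 120 were called, with 87 to 92 when 1 library was left out. Between macrophage-like and monocyte-like cells 4 of 8 were called, 2 with no library term, and 3 to 4 with 1 library left out. For GF against SPF colon 0 were called, but 3 with no filter on low counts and 0 to 1 with 1 library left out. For small intestine against SPF colon 0 were called, but 10 with no filter, 2 with no TMM scaling, 1 each with DESeq2, with only the 2 groups in the fit and with the stricter gate, and 0 to 1 with 1 library left out. For the organ difference between the 2 types 0 were called, but 1 with no filter and 0 to 1 with 1 library left out. For the unreplicated conditions 11 were past 2-fold, 5 with joint clusters and 22 to 25 when a single SPF library was the reference. The median share of macrophage-like cells with a UMI of one of the 8 was 51.8%, and 18.1% after thinning. The stricter gate, the joint-cluster runs and several others were chosen after the data had been seen.

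The replicate block gave 1 call for GF and 2 for the small intestine. The deviations of same-numbered libraries from their group means had an r of 0.715 (SPF and GF), 0.0679 (SPF and small intestine) and -0.00477 (GF and small intestine) over 14817 genes. The labels do not say that a number marks a shared batch, and not every correlation was over 0.1, so the numbers were not taken as pairs, although the SPF and GF libraries of one number did deviate together.

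Reversed were Tgfbi in macrophage-like minus monocyte-like cells, at -0.25 with joint clusters, -0.0154 with no filter, -0.00078 with no TMM, -0.0051 with no library term, -0.0417 in the 6 libraries of replicated groups and -0.0450 to 0.101 with 1 library left out, Il10ra in the same contrast, at -0.138 to 0.0916 with 1 library left out, Tgfb1 in neutrophil-like cells against the others, at -0.0157 with no TMM, and Il10 in GF B cell-like cells, at -0.36 with joint clusters. The cause was not tested. Depth limits the small sums, since 20 cells of a type can hold few UMIs of these genes, and 2 libraries a group limit the condition tests.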

Other observations

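Cells that passed no gate (5563) held 192 CPM of Il10, 525 CPM of Tgfbi and 100 CPM of Inhba over all libraries. The 55 mast cell or basophil-like cells, too few for the fit, held 299 CPM of Tgfb1, 152 CPM of Tgfbr1 and 180 CPM of Inhba.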
